A study of Mus musculus with 2 samples.

Results

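A small group of neurons in the postnatal day 1 mouse cerebellum samples carried transcripts of Tfap2d and Zfhx3 and almost none of Pax6. They were selected on measured counts: among nuclei with at least 1000 genes detected and at most 5% mitochondrial transcripts, a member had 1 or more unique molecular identifiers (UMIs, each standing for 1 captured transcript) of Tfap2d, 2 or more of Zfhx3 and 1 or fewer of Pax6. This left 50 of the 10033 nuclei that passed the limits, 22 of 3816 control nuclei and 28 of 6217 nuclei labelled cKO. The levels of these 3 genes in the members follow from that choice and are given as a description, and every comparison of the members with other nuclei is a description too, because the choice was made on the same nuclei.

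Tfap2d encodes a member of the AP-2 family of transcription factors and is best known from the developing posterior midbrain, where the inferior colliculus forms, and from the retina. Zfhx3 encodes a very large zinc finger and homeobox factor that is switched on as many brain neurons leave the cell cycle. Lhx9, a LIM homeobox factor, marks early-born glutamatergic neurons, among them those that settle in the cerebellar nuclei (CN), the output station of the cerebellum. Pax6 marks the granule cell lineage, which makes up much of the cerebellum at this age. In GRCm38 (GENCODE vM21 annotation), Tfap2d (ENSMUSG00000042596) lies on the plus strand of chromosome 1 from 19103022 to 19166346, Zfhx3 (ENSMUSG00000038872) on the plus strand of chromosome 8 from 107942644 to 108961630, and Lhx9 (ENSMUSG00000019230) on the minus strand of chromosome 1 from 138825186 to 138848577.

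The study asked how loss of the transcriptional regulator Tox3 changes the developing cerebellum, and profiled nuclei from 2 pools of 12 cerebella each at postnatal day 1. The control pool came from littermates without Cre that carried the floxed Tox3 allele (Tox3f/f in one label, Tox3f/f or Tox3f/+ in another), and the cKO pool from Nestin-cre;Tox3f/f mice, in which Cre is driven by the Nestin transgene in neural precursors. Both groups therefore carried a floxed allele, only the cKO pool carried Cre, and animals within a pool cannot be told apart. With 1 library in each group there is no replicate and no test between groups, and the 95% intervals below are exact and cover counting error only.

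The control library held 4857 barcodes and the other 6946, with medians of 4711 and 4495 UMIs in the nuclei that passed. Members were of ordinary depth, with medians of 4824.5 UMIs in control and 4783 in cKO and a range from 2653 to 18877. Their mitochondrial share had a median of 0.16%. A doublet caller (Scrublet) placed 1 of the 50 among the top-scoring barcodes, against 5.58% of all other nuclei. The libraries shared 9 barcode sequences, none of them a member's.

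Among the control members, Tfap2d ranged from 1 to 13 UMIs with a median of 3, and among the cKO members from 1 to 18 with a median of 2. Zfhx3 ranged from 5 to 29 (median 14) in control and from 3 to 27 (median 15) in cKO. Pax6 was at 0 in 49 of the 50 members. Near the thresholds, 16 members had a single Tfap2d UMI, no member had exactly 2 Zfhx3 UMIs, and 1 had exactly 3. Outside, 9 nuclei had Tfap2d, 1 Zfhx3 UMI and at most 1 Pax6 UMI, 41 had Tfap2d, no Zfhx3 and at most 1 Pax6 UMI, and 28 had Tfap2d with at most 1 Zfhx3 UMI and 2 or more of Pax6, and 5 met the Tfap2d and Zfhx3 limits but had 2 or more Pax6 UMIs. Of the members, 49 had 4 or more Zfhx3 UMIs. Relaxing the gene limit to 500 or the mitochondrial limit to 25% added no member.

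**Figure D1:**
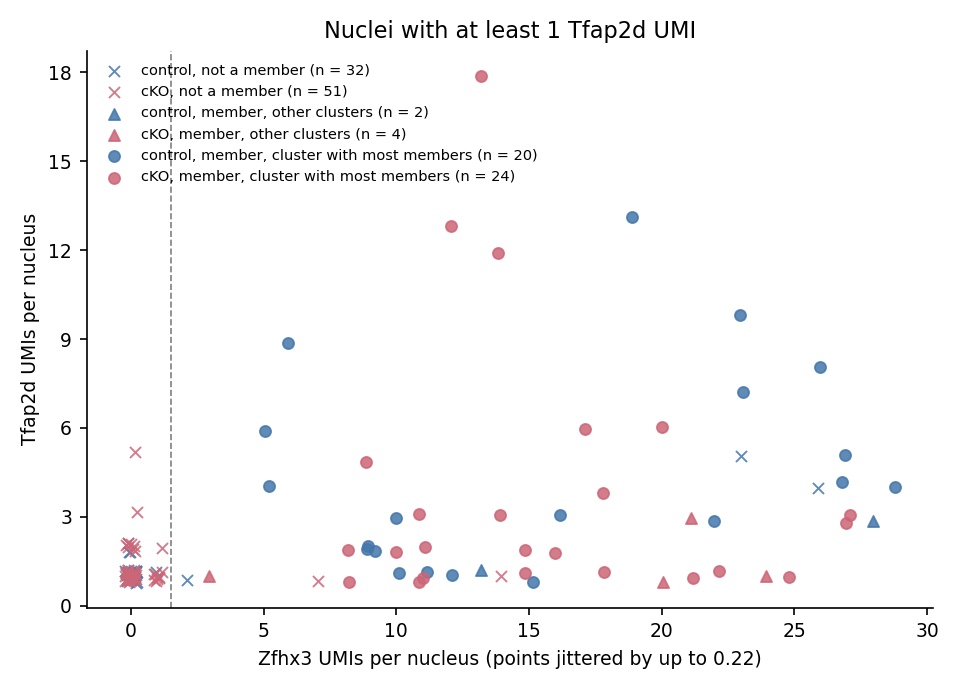
Each point is 1 nucleus with at least 1 Tfap2d UMI, with its Zfhx3 UMIs on the x axis and its Tfap2d UMIs on the y axis, coloured by library; circles are the 44 members in 1 cluster, triangles the 6 other members, crosses the 83 nuclei that were not members. The dashed line lies between 1 and 2 Zfhx3 UMIs; the crosses to its right are 5 nuclei with 2 or more Pax6 UMIs.

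Scattered Tfap2d UMIs occurred outside the members at a low rate. They were found in 0.786% of 4072 granule lineage-like nuclei (median 4154.5 UMIs) and in 0.604% of 1159 Purkinje cell-like nuclei (median 8560 UMIs). None of 211 microglia-like nuclei had one, which allows a share of up to 1.42% at their median of 2788 UMIs. Members held 193 of the 300 Tfap2d UMIs of all nuclei that passed. Zfhx3 was not particular to them, since all nuclei of another cluster, led by Zfhx3 and Dchs2 (a cadherin), had Zfhx3 UMIs, and 1 of its 161 nuclei, a member by the rule, had a Tfap2d UMI.

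When all nuclei were clustered without the 3 rule genes, 44 members fell into 1 cluster of 140 nuclei, 5 into the cluster called glutamatergic CN-like from its Slc17a6, Lhx9, Meis2 and Nrn1, and 1 into the Zfhx3 and Dchs2 cluster. In the cluster of 140, Tfap2d was found in 44% of the 100 nuclei that met the Zfhx3 and Pax6 limits (95% interval 34.1% to 54.3%). Among the 478 nuclei of all other clusters that met those limits the share was 1.26% (0.462% to 2.71%), against 0.890% of all 9893 nuclei outside the cluster. Within the CN-like cluster it was 5 of 92 such nuclei (5.43%, 1.79% to 12.2%), against 3.19% of all 345. These shares use the genes of the rule and overlapping sets of nuclei, and are given as a description. None of the 6 members outside the cluster had a Lhx9 UMI. One of these 6, a cKO nucleus of 18877 UMIs, carried 12.0% of all UMIs of the cKO members, so values that turn on it are also given for the 44 nuclei.

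Transcription factor genes beyond those of the rule were high in the members against all other nuclei, and in part also in the nuclei of the same cluster that were not members, called cluster mates. Lhx9 was found in 28 of 50 members, at 460 CPM (UMIs of the gene per 1e+06 UMIs summed over the members of a library) in control and 172 CPM in cKO, against 3.77 and 5.29 CPM in the other nuclei. Meis2, a TALE homeobox factor of maturing neurons, was found in 43 members at 2056 and 1350 CPM, 25.5-fold and 12.2-fold the level in the other nuclei. Tcf7l2, a transcriptional effector of Wnt signalling that is typical of thalamic and midbrain neurons, stood at 1333 CPM in control and 561 CPM in cKO, against 43.1 and 58.7 CPM. Both libraries thus placed these 3 genes well above their summed level in all other nuclei. The glutamatergic CN-like nuclei were nearer to the members in Meis2, at 1105 CPM in control and 890 CPM in cKO. They held Lhx9 at 48.7 and 43.8 CPM and Tcf7l2 at 9.75 and 4.57 CPM. In the cluster mates Lhx9 stood at 84.2 and 56.4 CPM, Meis2 at 874 and 771 CPM and Tcf7l2 at 137 and 163 CPM, between the members and the other nuclei.

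Zfhx4, the closest relative of Zfhx3, was found in 41 members at 864 and 580 CPM (other nuclei 84.0 and 97.1 CPM). It was not particular to them, being also among the leading genes of the Zfhx3 and Dchs2 cluster. The same held for the noncoding RNAs 2700069I18Rik and 8030451O07Rik, both also high in members. Zfhx2, the remaining gene of the family, stood at 235 and 268 CPM and was no higher than in the other nuclei (333 and 331 CPM). The LIM homeobox gene Lhx2 was low in absolute terms, with 18 UMIs in control and 8 in cKO, yet the other nuclei held only 0.93 and 0.967 CPM against 169 and 51.0 CPM here. Of the 12 LIM homeobox genes listed, 6 had no UMI in any member. The other AP-2 genes were sparse, Tfap2b with 27 UMIs in 8 members being the most abundant.

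Across all genes with at least 50 UMIs in the members, 26 of 938 (2.77%) were at least 4-fold higher than in the other nuclei in both libraries, computed on log2(CPM + 5), and 3 (0.32%) were at least 4-fold lower. The minimum of 50 UMIs left out the genes that are lowest in members. All 26 were detected in at least 20% of members. Because members were chosen on the same nuclei, this count describes them and supports nothing. The 25 with the largest change in the lesser of the 2 libraries began with Lncbate1, Ndst4 and Lhx9.

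Other genes of the 25 encode enzymes and secreted or surface proteins. Ndst4, an enzyme that adds sulphate groups to heparan sulphate chains, was at 4929 CPM in control and 2637 CPM in cKO against 164 and 144 CPM elsewhere. Hs3st2, another heparan sulphate sulphotransferase, stood at 244 and 223 CPM against 13.4 and 16.4 CPM. A further enzyme of this pathway, Hs6st3, was at 75.1 and 274 CPM against 1770 and 1758 CPM in the other nuclei. Tafa1, a secreted protein of neurons, was found in 43 members at 2094 and 2274 CPM, 20.9-fold and 17.0-fold the other nuclei. The adhesion molecule Cntn3, the collagen Col25a1, the zinc transporter Tmem163 and the potassium channel Kcnh5 also passed. The RNA-binding protein Celf4 was the only gene of the 25 detected in every member, at 2516 and 2943 CPM against 553 and 668 CPM.

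Several of the 25 are noncoding RNAs that lie over or beside another gene of the set, and their counts are not separate evidence. Lncbate1 (chromosome 8, 108553252 to 108584595, minus strand) lies within Zfhx3, on its opposite strand, so its place at the head of the list is tied to a gene of the rule. In the same way 2700069I18Rik overlaps Zfhx4, Gm43507 overlaps Ldb2 and Gm3227 overlaps Celf4, each on the opposite strand. D130079A08Rik lies 2340 bases from Pou4f1, a POU homeobox gene of sensory and midbrain neurons. It was confined to 11 members, with 66 of its 107 UMIs in 1 nucleus, and 4 of the 5 members with Pou4f1 were among those 11.

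**Figure D2:**
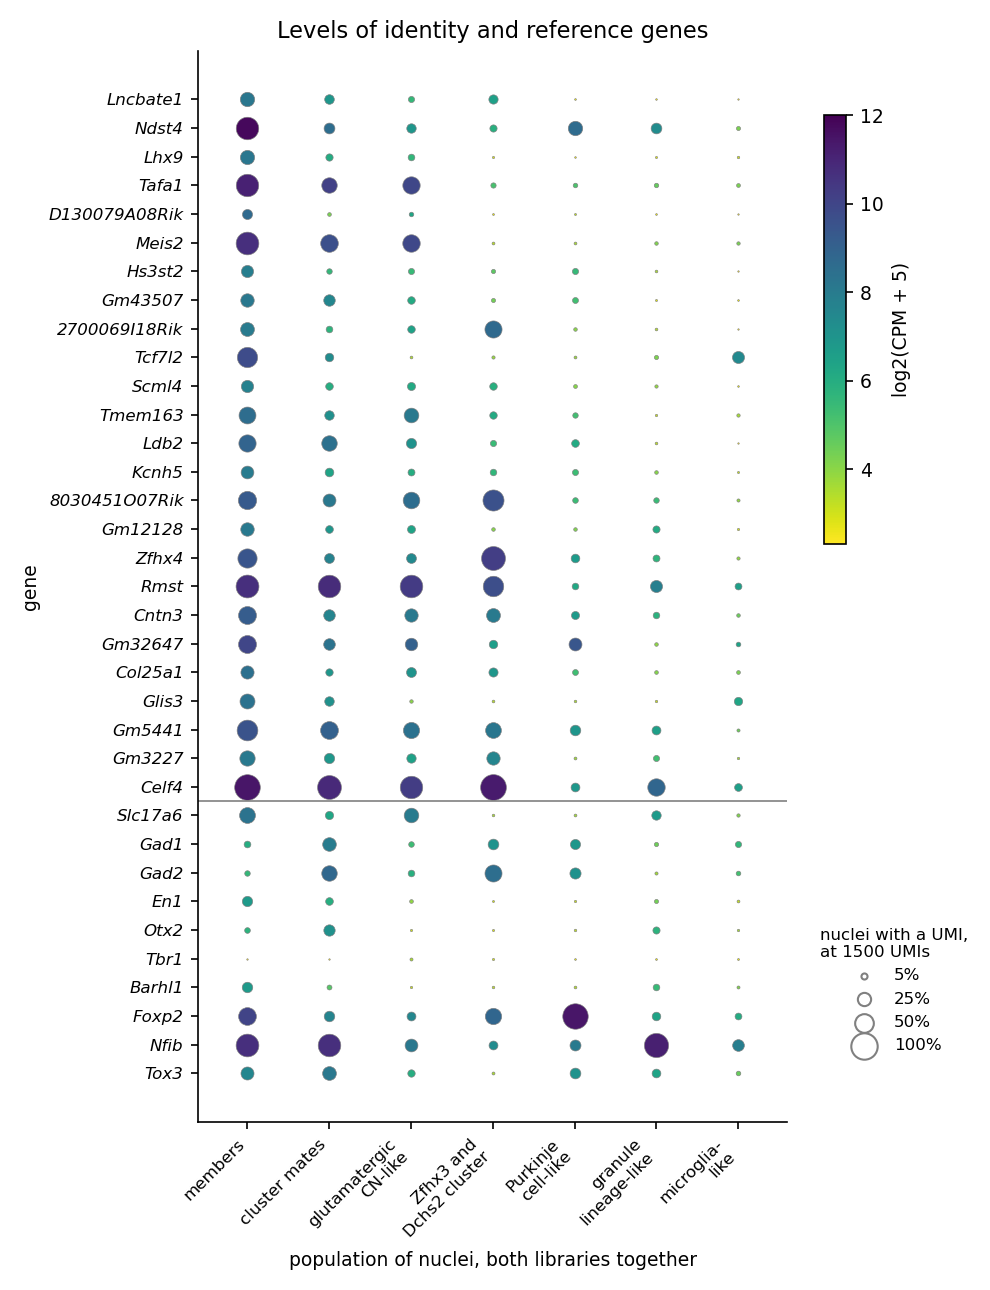
Rows are the 25 genes with the largest excess in members, then 10 reference genes below the line; columns are populations of nuclei with both libraries summed. Colour is log2(CPM + 5) and dot area is the share of nuclei with a UMI after thinning each nucleus to 1500 UMIs; the members column is dark for Ndst4, Tafa1, Meis2 and Celf4, Tcf7l2 is low in the glutamatergic CN-like column, and Gad2 is high in the cluster mates (the nuclei of the same cluster that are not members) and low in members.

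The 3 genes at least 4-fold lower in members of both libraries were Unc5c, Hs6st3 and Ntm. Unc5c, a netrin receptor, stood at 347 and 369 CPM against 4747 and 4610 CPM in the other nuclei, 0.0732-fold and 0.0801-fold. Ntm, an adhesion molecule, was at 366 and 541 CPM (2148 and 2349 CPM elsewhere), and the nuclear receptor Rora, among the 10 lowest genes, at 310 and 522 CPM (1851 and 1812 CPM). Nrxn3 differed between the libraries in its deficit, at 498 CPM in control and 1873 CPM in cKO against 4993 and 6083 CPM.

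Transmitter genes placed most members on the glutamatergic side. Slc17a6, the vesicular glutamate transporter of subcortical neurons, was found in 15 of 22 control members (319 CPM, interval 221 to 446) and in 19 of 28 cKO members (306 CPM, 225 to 405), so the libraries overlapped. Slc17a7 and Slc17a8, the other vesicular glutamate transporters, had no UMI in any member, which allows up to 11.4 CPM over both libraries. Slc17a6 without any UMI of the GABA genes Gad1, Gad2 or Slc32a1 was seen in 28 of 50 members (56.0%, 41.3% to 70.0%). A further 6 had both kinds, 11 had neither, and 5 had GABA genes alone. All of these 5 were in the cKO library, 1 of them the member in the Zfhx3 and Dchs2 cluster. Gad2, which makes GABA, had no UMI in the control members, which allows up to 28.2 CPM, and 11 UMIs (70.1 CPM) in 5 cKO members. Genes of monoamine and acetylcholine transmission were at or near 0, with 6 of 9 at no UMI at all.

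**Figure D3:**
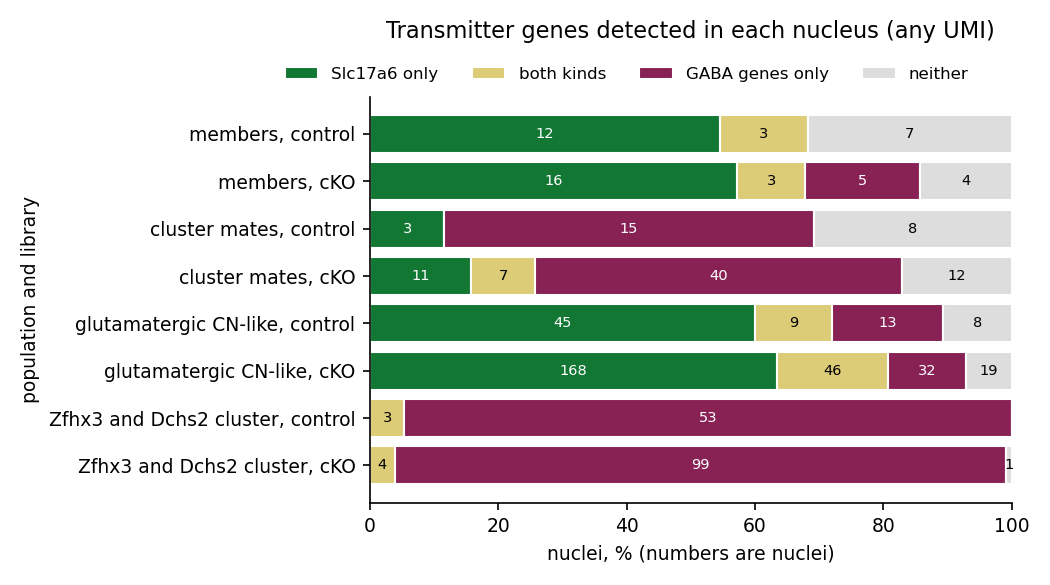
Bars give the share of nuclei in each population and library with UMIs of Slc17a6 only, of Gad1, Gad2 or Slc32a1 only, of both kinds or of neither, not adjusted for depth; numbers are nuclei. Members are mostly Slc17a6 only in both libraries, their cluster mates mostly GABA genes only.

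The 96 nuclei that shared the cluster but were not members were mixed in transmitter genes, with a balance unlike that of the members. GABA genes alone were seen in 55 of them (57.3%, 46.8% to 67.3%) and Slc17a6 alone in 14 (14.6%, 8.21% to 23.3%). A further 7 had both kinds and 20 had neither. Lhx9 was found in 14 of the mates, of which all 14 had Meis2 and 10 had Slc17a6. Thinned to 1500 UMIs, Gad2 was found in 34.3% of these nuclei and 4.10% of members, and Slc17a6 in 9.57% and 35.9%. Thinning left out 7 of the 96 nuclei and no member. Otx2, a homeobox gene of the midbrain and of unipolar brush cells, was found after thinning in 18.3% of the mates and 4.38% of members. The mates also held more top doublet scores (15.6%) and fewer UMIs (median 3875), and their part in these differences was not tested. For this reason the cluster as a whole was given no name, although 5 of the 7 genes of the glutamatergic CN list passed in it.

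Genes that mark brain regions were examined because Tfap2d is known from the midbrain, which borders the cerebellum. En1, the engrailed gene of midbrain and anterior hindbrain, was found in 16 of 50 members (113 CPM in control, 95.6 CPM in cKO, against 16.7 and 7.37 CPM in the other nuclei). All 6 Hox genes listed, which mark the hindbrain behind the cerebellum, had no UMI in any member, nor had Pax5, Pax8 and Gbx2, or the forebrain gene Emx2. Of the 11 genes listed for the midbrain tectum none reached 50 UMIs, and Dmbx1 and Foxb1 had none. The highest were Otx2, with 13 UMIs in 4 members, and Pou4f1, with 10 UMIs in 5. Summed, the tectum list was at 75.1 and 166 CPM in members, against 47.3 and 32.3 CPM in the other nuclei. In CN-like nuclei it was at 17.3 and 14.9 CPM, and in the cluster mates at 337 and 295 CPM. Barhl1, which is known from the granule lineage and also from the colliculi, was found in 20 members at 93.9 and 108 CPM, while Neurod1, Zic2, Etv1 and Gli2 of the granule list held 3 UMIs or fewer each, and Zic1 and Cntn2 held 10 and 9. Reln of the same list, which encodes a secreted guide of neuron migration, was the only one with 50 UMIs or more, with 132 UMIs in 28 members at 526 and 484 CPM (other nuclei 1293 and 807 CPM). Tbr1, a T-box factor of the glutamatergic CN list, had no UMI in members or in their cluster mates. It was also not among the genes that gave the CN-like cluster its name.

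Genes that mark other cell types had few UMIs in the members. No gene of the lists for astrocytes, oligodendrocytes, microglia, vascular cells, ependymal cells or dividing cells reached 50 UMIs in the members. The microglial list summed to 131 and 127 CPM (other nuclei 188 and 261 CPM) and the vascular list to 0 and 6.37 CPM (10.6 and 13.4 CPM). The astrocyte list summed to 244 and 210 CPM (987 and 1249 CPM). The oligodendrocyte list was at 103 and 38.2 CPM (99.1 and 127 CPM), so in control it was no lower than in the other nuclei. P2ry12, a microglial gene, was the most widespread among the microglial genes, in 12 members, and after thinning it was found in 11.1% of members, against 12.8% of Purkinje cell-like nuclei and 56.2% of microglia-like nuclei. Of the 11 pan-neuronal genes listed, 10 had 50 UMIs or more, and none was 4-fold higher or lower in both libraries. Nrxn3 was more than 4-fold lower in control only, at the levels given above. Their median change against the other nuclei was 0.11 on the log2 scale in control and 0.18 in cKO, beside 0.17 and 0.14 over all 938 genes. The summed level of the list was 8496 and 9772 CPM in members, against 13390 and 14593 CPM in the other nuclei.

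Glutamatergic CN-like nuclei were the named population most like the members by expression, with a Pearson correlation of 0.787 across the 938 genes (0.848 for the cluster mates). The correlation is a description across genes that share library and depth, and the 340 CN-like nuclei were deeper (median 9453 UMIs). The 2 populations had similar Slc17a6 levels, 319 and 306 CPM in members against 227 and 261 CPM. Tafa1 and Meis2 were less than 3-fold higher in members. On log2(CPM + 5), 11 genes (1.17% of 938) were at least 4-fold higher than in CN-like nuclei in both libraries and 0 (0%) were at least 4-fold lower, though 3 of 671 were lower in the 44 members of the shared cluster.

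Tcf7l2 showed the widest gap, at 9.75 and 4.57 CPM in CN-like nuclei against 1333 and 561 CPM, followed by Ndst4 (106 and 120 CPM against 4929 and 2637 CPM). Glis3, a Krüppel-like zinc finger factor, stood at 394 and 274 CPM in members against 14.1 and 10.7 CPM. The transcription factors Nfib and Zbtb20, both active in developing granule cells and glia, were 4.49-fold and 6.73-fold (Nfib) and 5.85-fold and 4.33-fold (Zbtb20) higher. The cluster mates held them at like levels, Nfib at 1969 and 1555 CPM against 1746 and 1593 CPM in members and Zbtb20 at 1348 and 915 CPM against 1089 and 924 CPM. In the other nuclei Nfib was also near its level in members, at 1816 and 1395 CPM, and Zbtb20 was at 446 and 431 CPM. Igfbpl1, found in immature neurons, was 10.2-fold and 13.3-fold higher than in CN-like nuclei. It stood at 253 and 248 CPM in members and at 158 and 108 CPM in the other nuclei. Among the lowest genes in members, the kainate receptor subunit Grik1 was at 131 and 306 CPM against 736 and 1001 CPM, and Schip1 at 122 and 382 CPM against 1484 and 1227 CPM. Snhg11, a long noncoding RNA of neurons, was at 770 and 1771 CPM against 4132 and 4566 CPM.

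Foxp2, the forkhead factor that marks Purkinje cells here, was also found in the members, in 30 of 50. It was higher than in CN-like nuclei in both libraries (11.1-fold and 3.68-fold), whereas Skor2, a Purkinje cell gene, had no UMI in any member, and Car8 had 6. Of the 8 genes of the Purkinje cell list, Foxp2, Rora and Dab1 had 50 UMIs or more, with medians of 0.16 and -0.14 on the log2 scale against the other nuclei. Dab1, a mediator of reelin signalling, was found in 45 members at 1521 and 2026 CPM (other nuclei 1362 and 2093 CPM). Of members with Foxp2, 20 had Slc17a6 and 20 had Lhx9. Among the cluster mates 24 nuclei had Foxp2, and 1 of them had Lhx9.

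Members were not uniform. For each of the 938 genes the number of nuclei with a UMI was set against the number that an even spread by depth would give, and the median ratio was 0.914. In 31 genes the ratio was under 0.5. Gpc5, a surface proteoglycan, had 59 of its 66 UMIs in 1 nucleus, and Cdh18, a cadherin, had 106 of 167 in 1. Rgs6, a regulator of G protein signalling, had 73 UMIs over 13 members with at most 12 in any, and 12 of the 13 lay in the shared cluster. The somatostatin gene Sst was found in 10 members with 22 UMIs, and no other listed neuropeptide gene had more than 3 UMIs.

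The members of the 2 libraries differed in sex-linked transcripts. Xist, which is transcribed from the inactive X chromosome of female cells, was found in 17 of 22 control members (77.3%, 54.6% to 92.2%) and in 9 of 28 cKO members (32.1%, 15.9% to 52.4%). In the other nuclei the order was opposite, 56.6% in control and 69.5% in cKO. UMIs of the Y-linked genes Uty, Ddx3y, Kdm5d or Eif2s3y were found in 5 control members (22.7%) and 19 cKO members (67.9%), against 45.6% and 30.6% of the other nuclei. For the 44 members of the shared cluster the gap was wider, with Xist in 15 of 20 and in 5 of 24. The order of the libraries in members was thus the reverse of that in the other nuclei. Within the cKO library the balance itself turned from mostly Xist to mostly Y-linked genes, and within control it leaned further to Xist. The cluster mates had Xist in 46.2% of 26 control nuclei (26.6% to 66.6%) and 41.4% of 70 cKO nuclei (29.8% to 53.8%). Their Y-linked genes were found in 23.1% (8.97% to 43.6%) and 48.6% (36.4% to 60.8%). Both pairs of intervals overlapped, so no order of the libraries was read for the mates. Neither Xist nor a Y-linked gene was found in 10 of the 26 and 11 of the 70. Library, genotype and animals cannot be told apart in what follows.

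**Figure D4:**
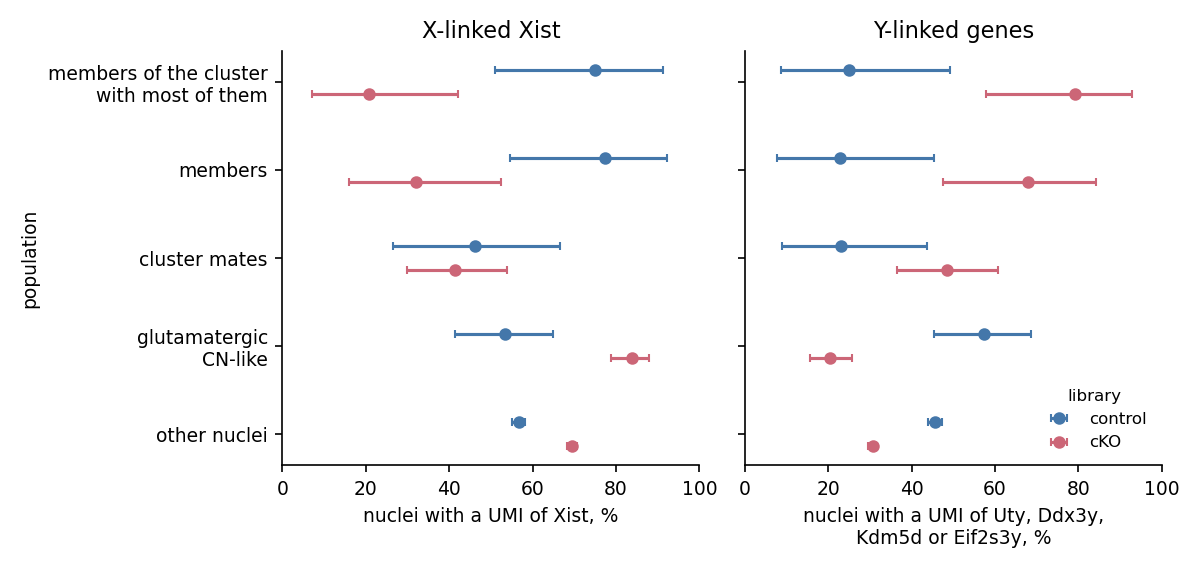
Points are the share of nuclei with a UMI of Xist (left) or of any of 4 Y-linked genes (right) in each population, by library, with exact 95% binomial intervals that cover counting error only. In members the control library is high for Xist and low for the Y-linked genes and the cKO library the reverse, while in the glutamatergic CN-like and the other nuclei the cKO library is the higher for Xist.

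Members made up 0.577% of nuclei in control (0.362% to 0.872%) and 0.450% in cKO (0.299% to 0.650%), a ratio of 0.781 with an interval from 0.431 to 1.43. The difference was not detectable at these counts. Over nuclei outside the granule lineage-like clusters, which held 2046 control and 2026 cKO nuclei, the shares were 1.24% and 0.668% and the ratio 0.538 (0.297 to 0.986), and counting the whole cluster of 140 nuclei gave 46 and 94 nuclei and a ratio of 1.25. The change of denominator thus moved the size of the ratio but not its direction. The ratio rose above 1 when the whole cluster, members and mates together, was counted, with an interval from 0.873 to 1.83.

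Tox3, the targeted gene, was present in members of both libraries, with 13 UMIs in 8 control members (122 CPM, 65.0 to 209) and 35 UMIs in 19 cKO members (223 CPM, 155 to 310). The ratio of cKO to control was 1.83 (0.943 to 3.76). It was 3.05 (1.43 to 7.24) in the 44 members of the shared cluster and 2.08 (1.07 to 4.28) without the deepest nucleus, where the intervals lie above 1. In the other nuclei Tox3 stood at 108 CPM in control and 121 CPM in cKO. Its UMIs were thus not lower in the library labelled cKO, in members or elsewhere; UMIs counted at the 3' end do not show whether the floxed part was removed, so they check the genotype in neither direction. Of its relatives, Tox, Tox2 and Tox4 had 94, 6 and 14 UMIs in members, and Tox was at 376 and 344 CPM, 3.76-fold and 3.35-fold the other nuclei, and at 484 and 335 CPM in the cluster mates.

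Between the libraries, 92 of 940 genes with at least 50 UMIs in the members were 2-fold or more apart on log2(CPM + 5), 59 (6.28%) higher and 33 (3.51%) lower in cKO. In the 44 members of the shared cluster 38 of 673 genes were, 16 (2.38%) higher and 22 (3.27%) lower, so the balance of directions turned. Only 12 of the 59 higher genes and 17 of the 33 lower genes were 2-fold apart the same way in both sets, although fewer UMIs also kept genes of the larger set from being counted in the smaller. Without the deepest nucleus 59 of 853 genes were 2-fold apart, 33 (3.87%) higher and 26 (3.05%) lower. Several of the genes higher in cKO rested on 1 nucleus: of the 10 highest, Gpc5 and Zfp804b had 89.4% and 80.3% of their UMIs in 1 nucleus, and their ratios were 0.578 and 0.653 without it. Epha5, a receptor for ephrins, was at 37.6 CPM in 3 control members and at 433 CPM in 10 cKO members, and in the 44 nuclei the ratio was 7.28 (2.60 to 28.2). Rtl4 was 5.09-fold higher, and 5.82-fold in the 44 nuclei (2.46 to 16.8).

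Of the 10 genes lowest in cKO, 9 stayed lower without the nucleus that held most of their UMIs, and Ebf1 did not (ratio 0.318 with it and 1.58 without). Rgs6 was found in 11 of 22 control members with 69 UMIs (648 CPM) and in 2 of 28 cKO members with 4 UMIs (25.5 CPM), a control-to-cKO ratio of 25.4 (9.49 to 95.9). In CN-like nuclei Rgs6 was found in 76.0% of control and 55.1% of cKO nuclei, and in the other nuclei in 19.8% and 20.5%. Kirrel3, an adhesion molecule of synapses, was at 3417 CPM in 18 control members and 790 CPM in 20 cKO members, while in the other nuclei its ratio was 1.05. Zfp608 was found in 15 and 11 members at 404 and 95.6 CPM. Lhx9 was 0.374-fold in cKO (0.225 to 0.610) and 0.458-fold in the 44 nuclei, though found in a like number of nuclei, 13 of 22 and 15 of 28.

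Tsix, which overlaps Xist on the opposite strand, was among the 10 lowest genes (807 and 242 CPM), beside the difference in Xist given above. The mitochondrial transcripts mt-Atp6 and mt-Co3 were also among them, and both were lower in cKO in the other nuclei too, at ratios of 0.641 and 0.676. They were not the only genes of the 10 that were lower there. Which of the remaining differences follow the sex or the animals of the nuclei was not tested.

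**Figure D5:**
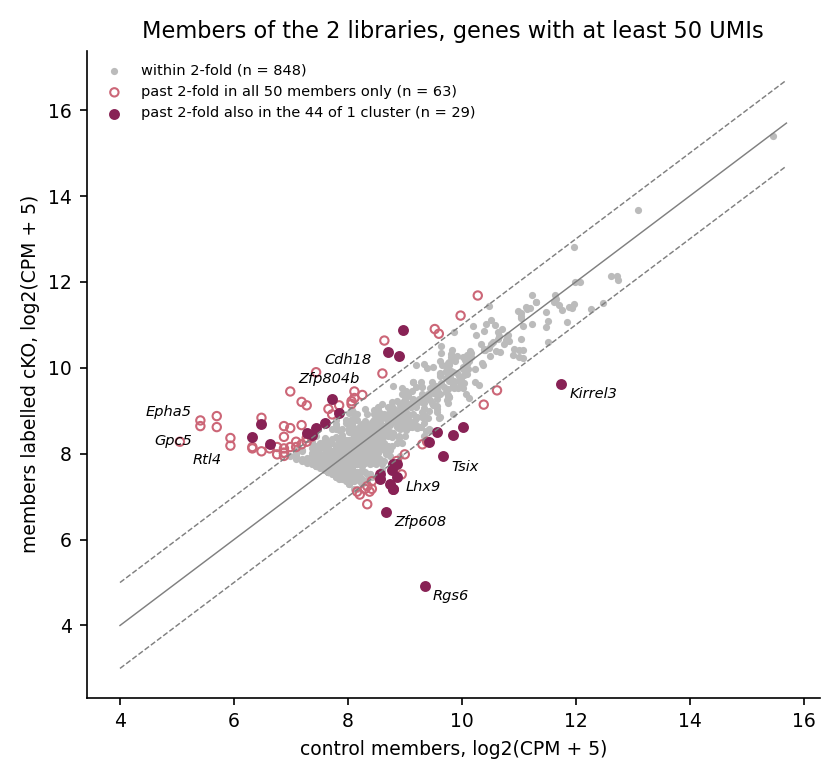
Each point is 1 of 940 genes with at least 50 UMIs in members, with its level in control members on the x axis and in cKO members on the y axis, both as log2(CPM + 5); the solid line marks equality and the dashed lines 2-fold. Filled points are the 29 genes also 2-fold apart the same way, with at least 50 UMIs, in the 44 members of 1 cluster, Rgs6 and Kirrel3 among them; open points are the other 63, such as Gpc5 and Cdh18.

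Library differences by list were read against the shares over all 940 genes, 6.28% higher and 3.51% lower. Of 12 glutamate receptor genes with 50 UMIs in members, 3 were 2-fold higher in cKO and 0 lower, with a median of 0.29 on the log2 scale beside -0.01 over all 940 genes. Of 10 potassium channel genes, 2 were higher and 0 lower, with a median of 0.60, and of 10 guidance genes 2 were higher and 0 lower, with a median of -0.12. None of these 7 genes was also counted as 2-fold apart in the 44 members of the shared cluster, where a gene again had to reach 50 UMIs. None of the 4 TALE homeobox genes with enough UMIs, Meis2 among them, was 2-fold apart.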

How the data were processed

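Single-nucleus 3' RNA-seq (10x Genomics) was measured in 2 libraries of postnatal day 1 mouse cerebellum, each from 12 pooled cerebella. Per the labels and the methods of the study, the authors dissociated frozen tissue to nuclei and processed reads with bcl2fastq and Cell Ranger 7.0.1 against mm10 with GENCODE vM23 genes; the deposited matrices hold UMI counts of 32285 genes per barcode, not normalized. Gene positions are from GENCODE vM21 (GRCm38, the build of mm10), an earlier release than the one the authors counted on. Strand handling in counting is not given in the sources used here.

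Counts were used as deposited (Python 3.11.15, scipy 1.17.1). Nuclei with 1000 genes and at most 5% mitochondrial UMIs were kept. Members were chosen by the rule given in the report; the rule and the gene lists were chosen with earlier results of these data known. UMIs were summed per population and library and scaled to CPM. Ratios carry exact conditional binomial intervals, CPM exact Poisson intervals and shares Clopper-Pearson intervals, at 95%, for counting error only. Fold changes across genes were taken on log2(CPM + 5) for genes with at least 50 UMIs in the members; limits for a count of 0 are 3 counts. No test was run, since each group has 1 library; p-values would measure nothing beyond these 2 pools.

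Genes named were, for members over other nuclei, the 25 highest (UMI in at least 20% of members, 4-fold in both libraries, ordered by the lesser log2 ratio) and 10 lowest; for members over CN-like nuclei, 10 and 10; between libraries, 10 and 10; and members of the lists. Lncbate1 is 1 of these although it overlaps Zfhx3. Genes named for uneven spread and the sex-linked genes were chosen after their values were seen.

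Nuclei were clustered in Seurat 5.3.0 (R 4.3.3; 3000 variable features without the 3 rule genes, CCA integration, resolution 2, 37 clusters). Resolution 2 was taken after resolution 0.8 was seen to merge fibroblast nuclei with the members' cluster. A cluster took the name of the list with most genes passing (at least 3, each found in 10% of its nuclei at 2-fold the median level elsewhere), except the cluster of the members and the Zfhx3 and Dchs2 cluster. Doublets were scored with Scrublet in scanpy 1.11.5; the top 0.8% per 1000 barcodes (189 and 386 barcodes) were marked, not removed, because the caller's own threshold marked 1 in control and 350 in cKO. Shares of nuclei were also compared after thinning to 1500 UMIs, as the mean over all thinnings. Scripts were tested on simulated data. A few listed genes are not reported here.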

Additional observations from a re-analysis of the deposited data

How the results depend on the processing

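The ratio of member shares, cKO over control, stayed within its counting interval under all 16 other settings run, from 0.538 over nuclei outside granule lineage-like clusters to 1.25 for the whole cluster that holds most members (1.11 at resolution 0.8). For the 6 members outside that cluster it was 1.23 (0.176 to 13.6). The Tox3 ratio in members stayed within its interval, from 1.66 with at least 2000 genes to 3.05 in the 44 members of that cluster. Genes 2-fold apart between the libraries were 92 of 940 as reported (9.79%). They were 51 of 522 with Tfap2d at 2 or more (9.77%) and 38 of 673 in the 44 members (5.65%). Without the deepest nucleus they were 59 of 853 (6.92%), and with each nucleus thinned to 1500 UMIs 12 of 169 (7.10%). A minimum of 20 UMIs gave 353 of 2747 (12.9%) and a minimum of 200 gave 11 of 147 (7.48%). The counts thus moved in large part with the number of genes tested. The share higher in cKO, 64.1% of the 92, was 42.1% in the 44 members and 64.9% with median-of-ratios scaling. Genes 4-fold higher than in other nuclei, 26 of 938 as reported, were 42 of 2745 with a minimum of 20 UMIs. Those 4-fold higher than in CN-like nuclei, 11 of 938 as reported, were 7 of 766 with at least 2000 genes. They were 22 of 2745 with a minimum of 20 UMIs and 18 of 2596 for the whole cluster. In the 44 members they were 19 of 671, and without the deepest nucleus 17 of 851. Those 4-fold lower than in CN-like nuclei were 0 of 938 as reported. They were 3 of 2596 for the whole cluster, 3 of 671 in the 44 members, 1 of 851 without the deepest nucleus and 1 of 2745 with a minimum of 20 UMIs. The settings of resolution 0.8, the 44 members and the deepest nucleus were added after seeing the data. No paired analysis was possible because each group has 1 library. Member counts of 22 and 28 nuclei, with 106517 and 156983 UMIs in all, limit every value: 3 UMIs are 28.2 CPM in control and 19.1 CPM in cKO.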

Other observations

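Among guidance genes not described above, Robo1, a receptor for Slit proteins, stood at 2835 CPM in control members and 1975 CPM in cKO members, 5.76-fold and 3.57-fold the other nuclei, and Dcc, a netrin receptor, at 5699 and 2924 CPM, against 4019 and 1865 CPM in the other nuclei of the same libraries. Dcc was lower in cKO both in members (ratio 0.513, and 0.699 without the 1 control nucleus that held 17.2% of its UMIs) and elsewhere. The POU homeobox gene Pou3f2 was found in 23 of 50 members, at 122 and 108 CPM against 17.1 and 18 CPM, and Pou3f3 in 14.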
